A study of Mus musculus with 40 samples.

Results

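The 10 genes described here encode surface receptors, granule proteins and membrane proteins of megakaryocytes and platelets, and they were taken by symbol from the 26411 genes counted in each library: Itga2b, Gp1ba, Gp1bb, Gp9, F2r, Pf4, Vwf, Treml1, Selp and Tmem40. All 10 were present in the count data. They were followed in lineage-negative, SCA1-positive, c-KIT-positive (LSK) cells sorted from E14.5 mouse fetal liver, a population enriched for haematopoietic stem and progenitor cells. RNA from 4 genotypes was sequenced, with 4 libraries each: wild type (WT), Kat6a E/E (homozygous for the KAT6A change G656E), Kat6b E/E (homozygous for the KAT6B change G577E), and Kat6a E/E;Kat6b E/E, homozygous for both and called the double mutant below. KAT6A and KAT6B are lysine acetyltransferases of chromatin, and both changes lie in the acetyltransferase domain, so the comparison asks how RNA levels in these cells differ when that domain is altered. The lines were made with CRISPR on a C57BL/6J background. A count per gene cannot show a point mutation, and Kat6a RNA (128 to 198 CPM, read counts scaled to the effective library size) and Kat6b RNA (22.3 to 40.8 CPM) were present in every LSK library, so the genotypes could not be checked here. The series also holds 24 libraries of whole E9.5 embryos in 6 genotypes (WT, Kat6a E/E, Kat6b E/E, the double mutant, and the null alleles Kat6a-/- and Kat6b-/-), which served as a second tissue. The study describes these embryos as male, but 3 of the 24 libraries (Kat6a-/- replicate 2 and Kat6b-/- replicates 2 and 3) had 527 to 755 CPM of Xist, the RNA of the inactive X chromosome, against 0 to 0.514 CPM in the others.

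Megakaryocytes arise from stem and progenitor cells and release platelets. On the platelet surface the integrin made of ITGA2B and ITGB3 binds fibrinogen, the complex of GP1BA, GP1BB, GP9 and GP5 binds von Willebrand factor, and protease-activated receptors respond to thrombin; F2R is the founding member of that family, although mouse platelets rely on its relatives. Alpha granules store PF4, VWF, P-selectin (Selp) and TREML1 until activation. Transcription factors of the GATA, ETS, RUNX, GFI1B and TAL1 families act together on many of these genes. A subset of stem cells carries this programme at a low level, and ITGA2B (CD41) is also an early surface marker of blood progenitors. The lineage antibodies that the study names for its flow cytometry did not include CD41. The study does not list antibodies separately for the sequenced cells, so selection on CD41 there could not be checked.

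Library quality differed between libraries of one group. The LSK libraries held 12270376 to 59216547 counted read pairs. Kat6a E/E replicate 2 and double mutant replicates 2, 3 and 4 had a read pair for 12600 to 13683 genes, against 16082 to 17647 genes in the other 12 libraries, and the 3 double mutant libraries came from 1 litter. The same 4 libraries carried the highest summed levels of 19 erythroid markers, 8248 to 15846 CPM against 1153 to 7666 CPM in the others. The statistical model of the study fits 4 surrogate variables, which are unlabelled directions of variation estimated from the counts, and a litter block. The share of each library was computed for the same design by ordinary least squares, without the litter block or weights on single counts. There, double mutant replicate 1 carried 79.9% of the weight of that group in the comparison with WT. Kat6a E/E replicate 2 carried 7.07% of the weight of its group against WT. The shares in the full model were not computed. Ly6a, which encodes SCA1, was measured at 0.937 to 10.3 CPM and Kit at 351 to 552 CPM. In these bulk libraries, fewer cells of a type and less RNA per cell cannot be told apart.

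**Figure D1:**
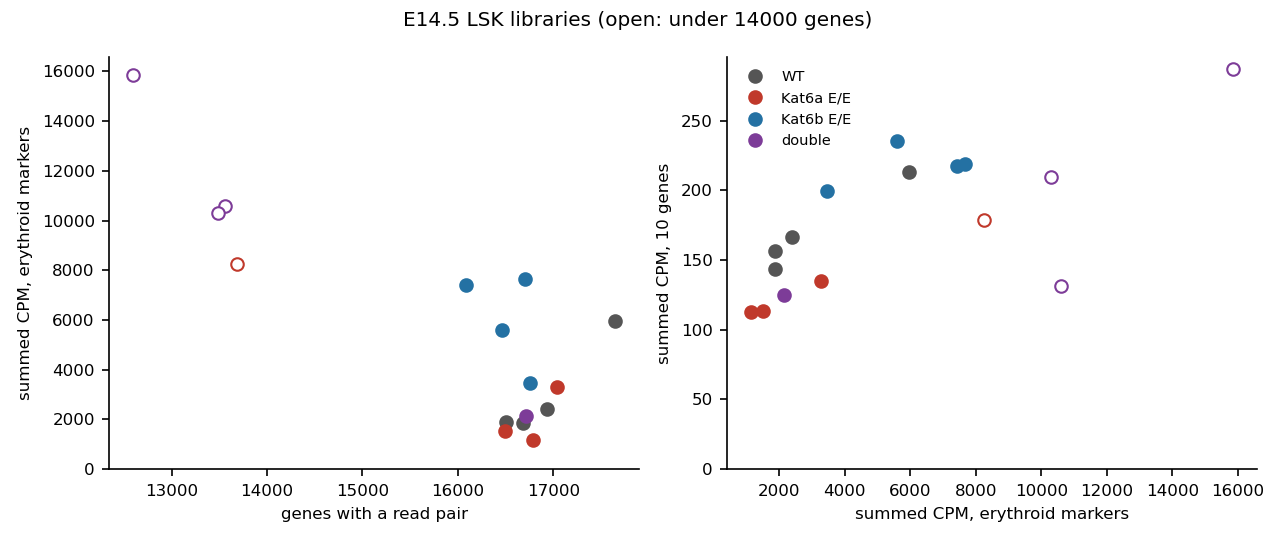
Left, summed CPM of the erythroid markers against the number of genes with a read pair; right, summed CPM of the 10 megakaryocyte and platelet genes against summed CPM of the erythroid markers, 1 point per LSK library, coloured by genotype. The 4 open points, with under 14000 genes, have the highest erythroid sums, and the Kat6b E/E libraries have sums of the 10 genes from 200 to 235 CPM.

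In wild-type LSK cells the 10 genes fell into 3 bands of level per gene length. In RPKM, which is CPM divided by the gene length in kilobases, F2r was the highest at 17.97 ± 1.90 (SD, n = 4), followed by Itga2b at 14.48 ± 3.99 and Pf4 at 12.5 ± 7.23. Gp9 (10.1 ± 2.05) and Tmem40 (10.1 ± 1.07) stood next, and the ranges of neighbouring genes in this first band overlapped. Treml1 lay apart at 4.17 ± 1.33, with a range of 2.99 to 6.06 RPKM that met neither the gene above nor the gene below it. Vwf (1.45 ± 0.5001), Gp1ba (1.24 ± 0.203), Selp (1.20 ± 0.450) and Gp1bb (0.915 ± 0.240) formed the lowest band, with overlapping ranges between neighbours. Within the receptor complex for von Willebrand factor, the Gp9 level was above those of Gp1ba and Gp1bb in every WT library. The Gp1bb value is uncertain: all 2087 exonic bases of Gp1bb also belong to an annotated Septin5 transcript on the same strand, so read pairs of the 2 genes are not separable by position alone.

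The order differed in whole WT embryos at E9.5, which were fitted and scaled separately. There F2r had a mean of 52.8 RPKM and Itga2b 2.44 RPKM. Selp had no read pair in 13 of the 24 embryo libraries, which allows up to 0.357 CPM in the shallowest of them. The LSK to embryo ratio of the WT means ran from 0.340 for F2r and 0.604 for Vwf, genes that endothelial cells also use, to 12.1 for Gp9 and 24.4 for Tmem40 among the 9 genes without Selp. For Selp, with 0 read pairs in some of the WT embryos, the ratio was 96.6. These ratios compare different tissues and stages and were not tested.

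**Figure D2:**
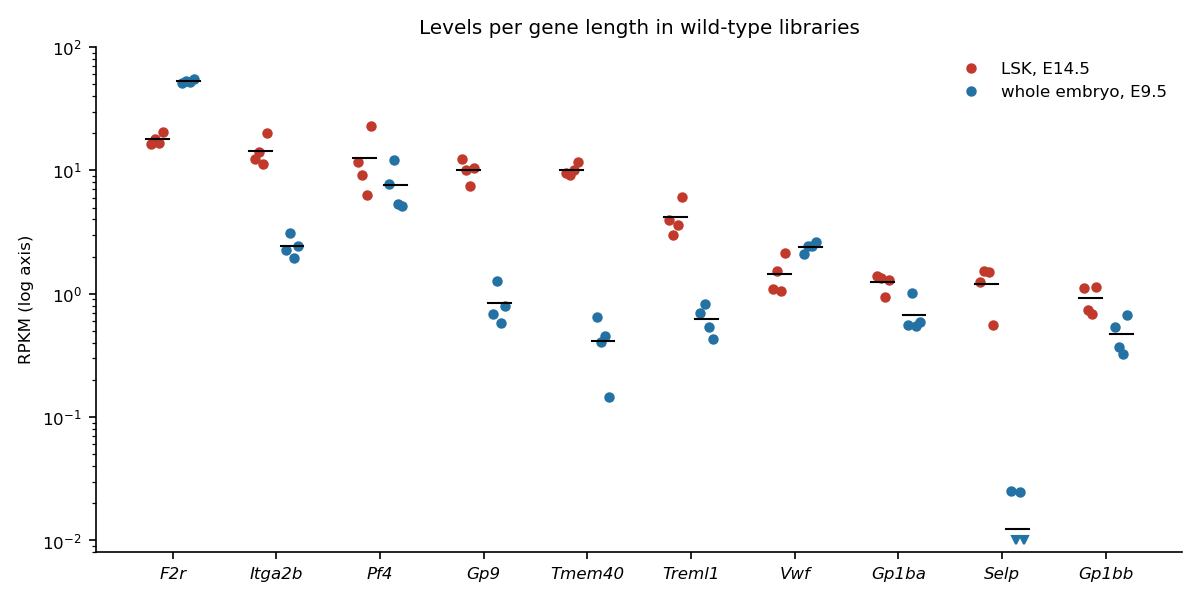
RPKM on a log axis of each gene in the 4 WT LSK libraries (red) and the 4 WT embryo libraries at E9.5 (blue); black bars are means, and triangles at the axis floor are libraries with a count of 0. F2r leads in both tissues, and Selp is the gene closest to 0 in embryos.

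Kat6a E/E LSK cells had less Itga2b and F2r RNA and more Tmem40 RNA than WT cells. Of 13071 genes tested, 178 (1.36%) passed a false discovery rate (FDR) of 0.05 in Kat6a E/E against WT, and 3 of the 10 genes were among them. The background for a lower call was 0.627% of genes and for a higher call 0.734%. At an unadjusted p under 0.05 there were 7 of the 10 genes, against 12.5% of all genes tested. The median log2 fold change of the 10 genes was -0.54, beside -0.01 over all genes tested, and 9 of the 10 estimates were below 0. All FDR values are from voomLmFit of limma and edgeR over all genes tested unless another tool is named.

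Itga2b (chromosome 11, 102341397 to 102360955 on the minus strand of GRCm39), which encodes the fibrinogen receptor subunit CD41, was measured at 42.9, 48.3, 38.5 and 69.5 CPM in the WT libraries and at 25.9, 41.1, 33.6 and 25.1 CPM in the Kat6a E/E libraries. The ranges met only between the highest Kat6a E/E library, which is the one with few detected genes, and the lowest WT library. The fitted log2 fold change was -0.78 (SE 0.140, FDR = 0.0179). F2r (chromosome 13, 95737382 to 95755177, minus strand), which encodes the thrombin receptor PAR1, was measured at 55.0, 60.5, 55.7 and 68.8 CPM in WT and at 36.1, 53.7, 46.9 and 37.1 CPM in Kat6a E/E. Every Kat6a E/E library was below every WT library, and the log2 fold change was -0.57 (SE 0.108, FDR = 0.0216). Tmem40 (chromosome 6, 115706090 to 115739448, minus strand), which encodes a membrane protein of little-known function, was measured at 14.1, 13.6, 14.9 and 17.2 CPM in WT and at 20.4, 35.8, 21.1 and 18.02 CPM in Kat6a E/E. The groups again did not overlap, here with the mutant higher, at a log2 fold change of 0.51 (SE 0.0821, FDR = 0.0135).

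The direction of these 3 changes held under all 32 alternative settings, while the calls did not. Itga2b passed in 23 of them, F2r in 22 and Tmem40 in 25, and with 0 surrogate variables none of the 3 passed, at FDR values of 0.603, 0.650 and 1.00 from limma and fold changes of -0.76, -0.54 and 0.50. Without Kat6a E/E replicate 1 the FDR was 0.374 for Itga2b, 0.411 for F2r and 0.322 for Tmem40. Itga2b and F2r also missed the threshold without Kat6a E/E replicate 4 (0.0797 for both) and without WT replicate 2 (0.0606 and 0.0602), and F2r without WT replicate 4 (0.0590). Without the 4 libraries with few genes, Itga2b and F2r passed with 0 surrogate variables (FDR 0.0402 and 0.0263 from limma) and Tmem40 did not (0.143), and with 2 surrogate variables all 3 passed.

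**Figure D3:**
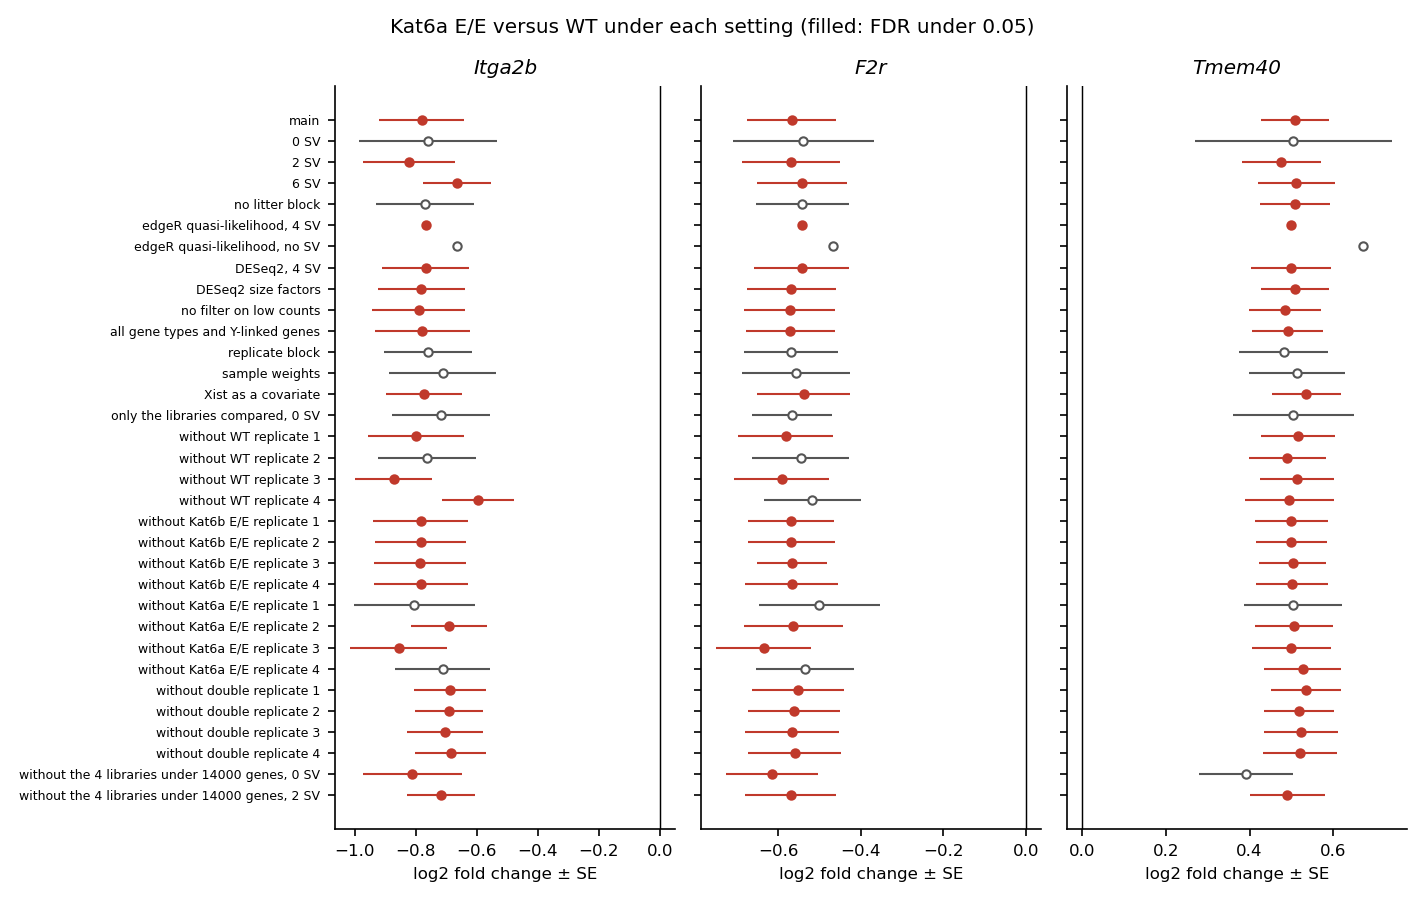
Log2 fold change of Itga2b, F2r and Tmem40 in Kat6a E/E against WT under each setting (SV, surrogate variables), with bars of 1 SE where the tool gives one; filled points have an FDR under 0.05. No point crosses 0 in any of the 3 panels.

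The 250 bases before the start of the canonical transcript of each of these 3 genes are shown because they are the genes that passed the test (GRCm39 with GENCODE, gene strand, 5′ to 3′). Capitals mark matches on either strand to GATA motifs (AGATAA or TGATAA), ETS motifs (CCGGAA or AGGAAG), a RUNX motif (TGTGGT) and the NFE2 core (TGAGTCA).
Itga2b, chr11:102360710-102360959: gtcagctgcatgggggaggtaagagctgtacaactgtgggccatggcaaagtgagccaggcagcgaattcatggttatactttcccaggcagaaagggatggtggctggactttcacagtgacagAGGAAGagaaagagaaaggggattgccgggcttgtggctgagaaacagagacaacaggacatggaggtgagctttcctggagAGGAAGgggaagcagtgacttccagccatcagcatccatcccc
F2r, chr13:95755178-95755427: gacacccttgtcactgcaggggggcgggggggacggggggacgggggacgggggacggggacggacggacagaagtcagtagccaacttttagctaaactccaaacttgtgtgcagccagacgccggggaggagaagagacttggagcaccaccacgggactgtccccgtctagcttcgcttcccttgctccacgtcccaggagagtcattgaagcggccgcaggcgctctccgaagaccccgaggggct
Tmem40, chr6:115739372-115739621: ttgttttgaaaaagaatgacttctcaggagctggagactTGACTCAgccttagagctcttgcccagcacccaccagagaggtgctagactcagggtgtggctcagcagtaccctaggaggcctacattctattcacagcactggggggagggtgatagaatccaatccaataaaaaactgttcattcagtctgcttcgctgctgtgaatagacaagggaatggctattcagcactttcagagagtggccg
Other annotated transcripts start further upstream, so 246 bases of the Itga2b window and 77 of the Tmem40 window lie inside the gene as annotated, and 0 of the F2r window. Itga2b held AGGAAG at 2 positions, starting 125 and 43 bases before the transcript start, Tmem40 held the NFE2 core on the opposite strand, and F2r held none of the searched words. Over the 10 genes, an ETS word stood in 5 windows (Itga2b, Gp1ba, Gp9, Vwf, Selp), a GATA word in 3 (Gp1ba, Vwf, Treml1), a RUNX word in 3 (Gp1bb, Gp9, Vwf) and the NFE2 core in 1. Among 21603 promoters of protein-coding genes, 38.3% held an ETS word, 16% a GATA word, 13.1% a RUNX word and 3.99% the NFE2 core. These are matches of letters and not measured binding sites.

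The other receptor subunits did not pass the test in Kat6a E/E. Gp1bb was measured at 2.30, 1.53, 1.42 and 2.37 CPM in WT and at 0.565, 1.03, 0.890 and 0.846 CPM in Kat6a E/E, with no overlap between the groups. Its log2 fold change was -1.38 (SE 0.505, FDR = 0.230), from 10 to 28 read pairs per Kat6a E/E library. Gp1ba, the subunit that contacts von Willebrand factor, ranged from 4.42 to 6.54 CPM in WT and from 4.47 to 8.78 CPM in Kat6a E/E. Gp9 ranged from 6.50 to 10.9 CPM in WT and from 6.07 to 9.41 CPM in Kat6a E/E. The fitted differences were -0.04 (SE 0.192) for Gp1ba and -0.06 (SE 0.169) for Gp9, with FDR values of 0.963 and 0.940.

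Among the granule genes the estimates were below 0 but imprecise. Pf4, a chemokine of alpha granules also called CXCL4, was measured at 6.12, 4.74, 3.31 and 11.9 CPM in WT and at 2.43, 12.8, 0.986 and 2.02 CPM in Kat6a E/E. Replicate 2, the library with few genes, was above every WT library, while the other Kat6a E/E libraries were below every WT library. The log2 fold change was -1.70 (SE 0.702, FDR = 0.349). Treml1, a fibrinogen-binding receptor of alpha granules, was measured at 4.99, 3.74, 4.54 and 7.57 CPM in WT and at 2.77, 5.85, 3.34 and 2.39 CPM in Kat6a E/E. The same replicate was again the exception, at a log2 fold change of -0.81 (SE 0.229, FDR = 0.107). Vwf had a log2 fold change of -0.50 (SE 0.219, FDR = 0.352) and Selp, the adhesion receptor P-selectin, one of -0.10 (SE 0.274, FDR = 0.940). Without overlap between groups, 2 of the 10 genes were lower (F2r, Gp1bb) and 1 higher (Tmem40), against 2.21% and 1.89% of all genes tested.

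On the CPM alone, an exact two-sided permutation test over the 4 Kat6a E/E and 4 WT libraries gave an unadjusted p of 0.0286 for F2r, Gp1bb and Tmem40, the smallest that 70 splits allow, and 0.0571 for Itga2b. The other 6 of the 10 genes had values from 0.171 to 0.914. The test treated all libraries as independent and ignored litter, although WT replicates 1 to 3 share 1 litter. For F2r, Gp1bb and Tmem40 the smallest p restates that the groups did not overlap. Within litter 753, which holds WT replicates 1 to 3 and Kat6a E/E replicate 1, the Kat6a E/E library was below all 3 littermates for Itga2b (25.9 against 38.5 to 48.3 CPM) and F2r (36.1 against 55.0 to 60.5 CPM). It was above all 3 for Tmem40 (20.4 against 13.6 to 14.9 CPM). Pf4, Gp1bb, Treml1 and Selp were also below all 3 WT littermates, and Gp1ba, Gp9 and Vwf were within their range. These positions rest on 1 Kat6a E/E library. The share of all genes below or above all 3 littermates was not computed.

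**Figure D4:**
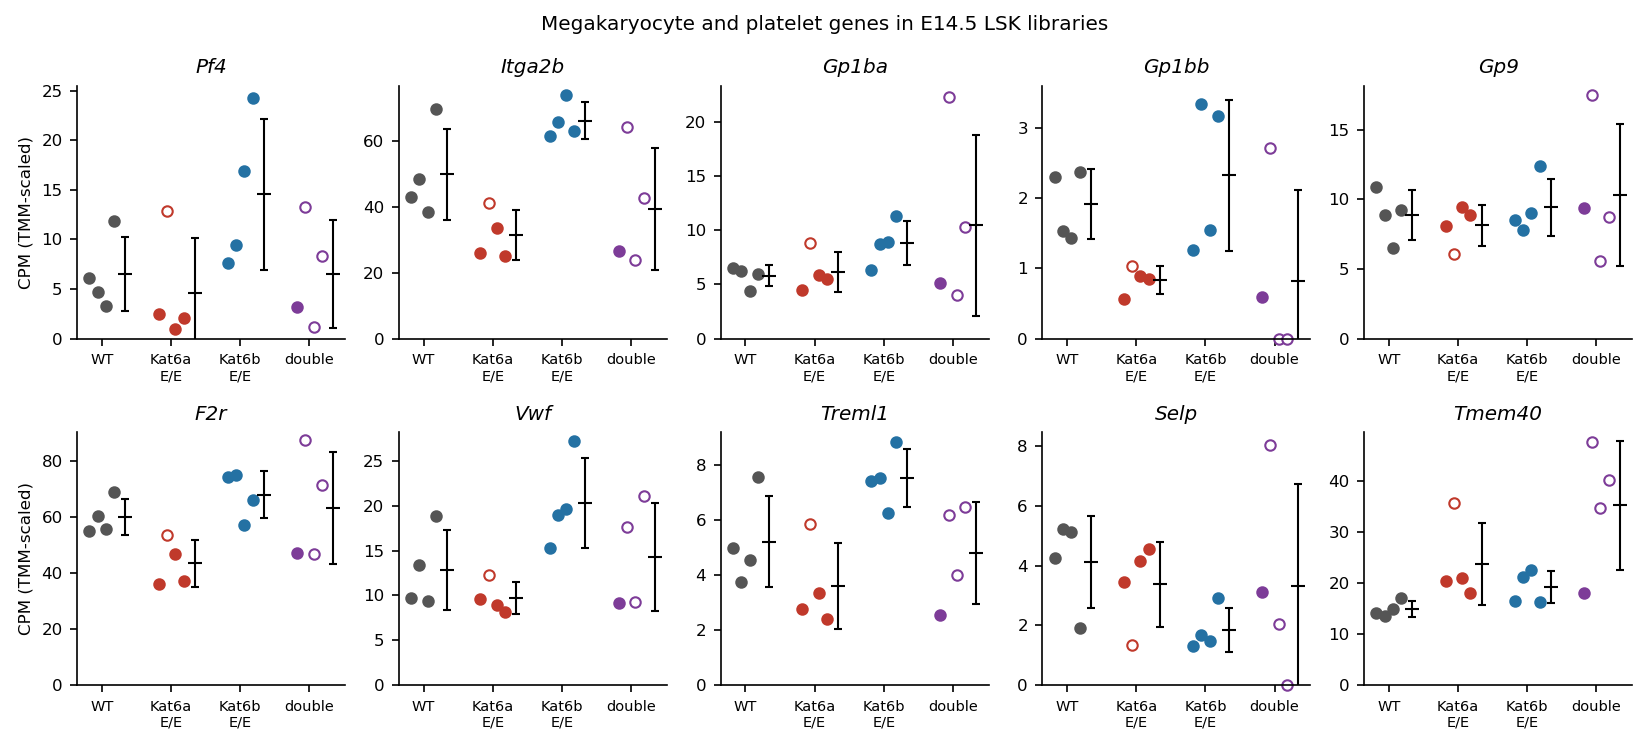
CPM of each gene in the 16 LSK libraries by genotype (double, Kat6a E/E;Kat6b E/E); open points are the 4 libraries with under 14000 genes, and black bars are mean ± SD of 4 libraries, drawn no lower than 0. F2r and Gp1bb in Kat6a E/E lie below WT and Tmem40 above it, and the double mutant points spread widely.

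In Kat6b E/E LSK cells none of the 10 genes passed. The fit called 0 of 13071 genes (0%) against WT, 364 genes had an unadjusted p under 0.05 (2.78%), none of the 10 genes among them, and edgeR and DESeq2 called none of the 10 either. The CPM of several genes was nevertheless at the upper end of the WT range or above it. Itga2b was measured at 61.3, 65.7, 73.9 and 62.9 CPM in Kat6b E/E, Pf4 at 7.63, 9.40, 16.9 and 24.2 CPM, and Vwf at 15.3, 19.0, 19.7 and 27.2 CPM. Each of these 3 genes still overlapped WT, whose replicate 4 was the highest WT library for all 3. The fitted log2 fold changes were 0.19 (SE 0.150) for Itga2b, 0.51 (SE 0.572) for Pf4 and 0.35 (SE 0.231) for Vwf. Selp was measured at 1.30, 1.69, 1.48 and 2.90 CPM against 4.27, 5.23, 5.12 and 1.90 CPM in WT, at a log2 fold change of -0.67 (SE 0.376, FDR = 1.00). The summed erythroid markers were 3472 to 7666 CPM in Kat6b E/E and 1874 to 5950 CPM in WT, WT replicate 4 being the highest there too, and their part in these levels was not tested.

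The 2 single mutants were then compared directly. In Kat6a E/E against Kat6b E/E, 270 genes passed (2.07%), and 2 of the 10 genes did, both lower in Kat6a E/E, against 0.941% of all genes called lower. At an unadjusted p under 0.05 there were 7 of the 10 genes, against 17.5% of all genes. Itga2b fell by 0.97 (SE 0.163, FDR = 0.0152) and F2r by 0.63 (SE 0.127, FDR = 0.0249) on the log2 scale. Treml1 (-1.02, SE 0.267, FDR = 0.0571) and Tmem40 (0.38, SE 0.0992, FDR = 0.0565) missed the threshold, as did Vwf (-0.86, SE 0.254, FDR = 0.0935). Before any model, in Itga2b, F2r, Gp1bb, Treml1 and Vwf every Kat6a E/E library was below every Kat6b E/E library, 5 of the 10 genes against 4.67% of all genes tested. With edgeR or DESeq2 and the same surrogate variables, 7 of the 10 genes passed, against 9.28% and 13.3% of all genes, and with 0 surrogate variables none did. Without Kat6a E/E replicate 1 or replicate 4 none passed, and F2r missed the threshold without Kat6b E/E replicate 1 (FDR 0.0591 from limma), replicate 2 (0.0695) or replicate 4 (0.0570). Without WT replicate 4, 5 of the 10 genes passed, against 9.63% of all genes.

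**Figure D5:**
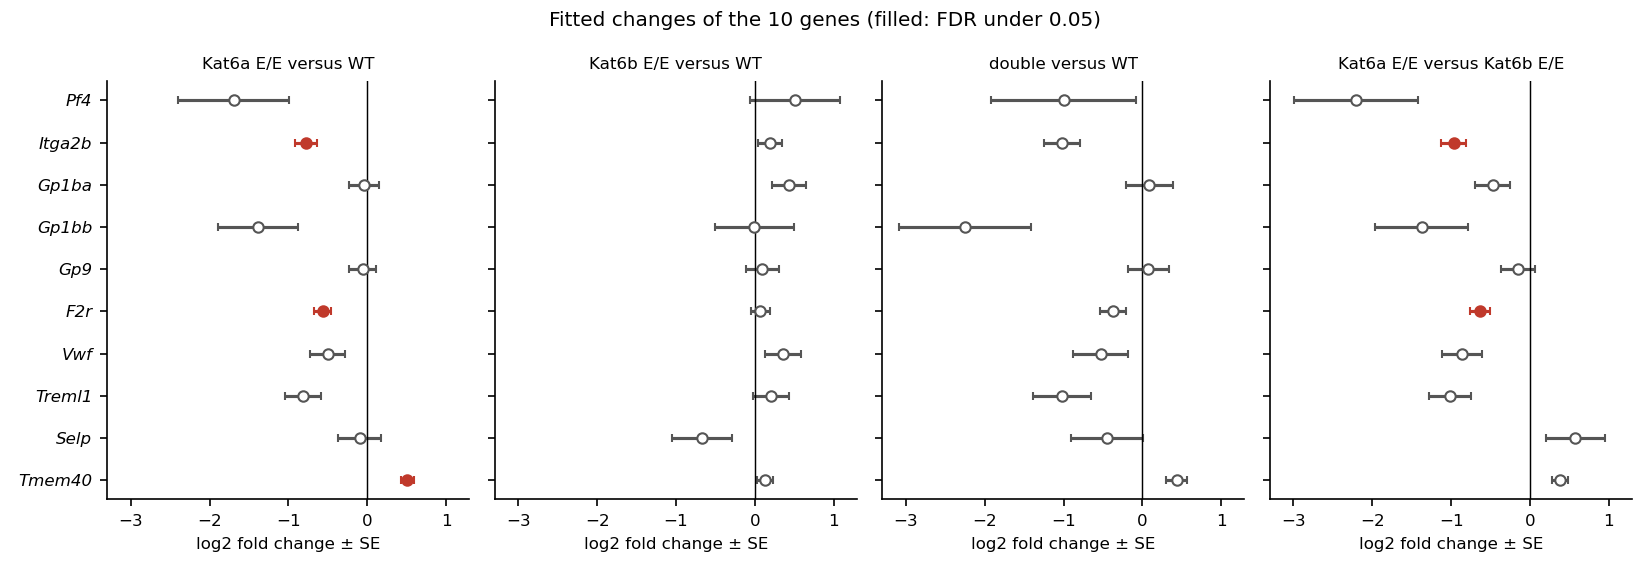
Fitted log2 fold change of each gene with bars of 1 SE against WT in each single mutant and then the double mutant, with Kat6a E/E against Kat6b E/E on the right; filled red points have an FDR under 0.05. Itga2b, F2r and Tmem40 are filled for Kat6a E/E against WT, none for the other 2 panels against WT, and Itga2b and F2r on the right.

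The double mutant libraries disagreed among themselves. Itga2b was measured at 26.7, 64.0, 23.8 and 42.7 CPM, F2r at 47.0, 87.5, 46.7 and 71.5 CPM, and Pf4 at 3.18, 13.3, 1.19 and 8.30 CPM. Replicate 2 was the highest for each of these genes and replicate 3 the lowest, and both came from the same litter. Tmem40 was measured at 18.1, 47.8, 34.9 and 40.3 CPM, every library above all WT libraries, 1 of the 10 genes against 1.53% of all genes tested. Gp1bb had 0 read pairs in replicates 3 and 4, which allows up to 0.251 and 0.114 CPM at 3 counts, and 2.71 CPM in replicate 2, the highest library of that group. Selp likewise ran from 0 in replicate 4 to 8.06 CPM in replicate 2.

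No gene passed in the double mutant against WT (0 of 13071, 0%), with 896 genes (6.85%) and 5 of the 10 genes at an unadjusted p under 0.05. These were Itga2b (-1.02, SE 0.226, FDR = 0.251), F2r (-0.37, SE 0.164, FDR = 0.697), Gp1bb (-2.26, SE 0.837, FDR = 0.605), Treml1 (-1.02, SE 0.372, FDR = 0.579) and Tmem40 (0.44, SE 0.132, FDR = 0.434), all on the log2 scale. Both comparisons share the WT libraries. For F2r the estimate was below 0 although the measured mean was not lower, at 63.2 ± 19.97 CPM (SD, n = 4) in the double mutant and 60.0 ± 6.36 CPM in WT, and it was above 0 in 1 of 32 alternatives. DESeq2 called Itga2b alone (0.612% of all genes passed), edgeR with surrogate variables called none, and edgeR without them called Tmem40 alone (0.298% of all genes). Without replicate 1 of the double mutant, which leaves the 3 libraries with few genes, 2170 genes (16.4%) and 4 of the 10 genes passed (Itga2b, Gp1bb, Selp and Tmem40).

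The double mutant was also compared with each single mutant. Against Kat6a E/E, 0 of 13071 genes passed (0%), 197 had an unadjusted p under 0.05 (1.51%), none of the 10 genes among them, and edgeR and DESeq2 with surrogate variables called none of the 10. The differences ran from -0.87 (Gp1bb, SE 0.921) to 0.70 (Pf4, SE 1.11) on the log2 scale. Without double mutant replicate 1, 2 of the 10 genes (Gp1bb and Tmem40) and 15.1% of all genes passed. Against Kat6b E/E, 193 genes passed (1.48%), and Itga2b was the only one of the 10 (0.926% of all genes were called lower), at a log2 fold change of -1.21 (SE 0.195, FDR = 0.0206). At an unadjusted p under 0.05 there were 6 of the 10 genes, against 20.8% of all genes. Treml1 followed at -1.22 (SE 0.326, FDR = 0.0628). In litter 970, which holds 1 library of each of these genotypes, Itga2b was at 26.7 CPM in the double mutant and 61.3 CPM in Kat6b E/E, and Treml1 at 2.54 and 7.43 CPM. That double mutant library is replicate 1, with 67.5% of the weight of its group here by ordinary least squares. Before any model, Itga2b in double mutant replicate 2 (64.0 CPM) lay within the Kat6b E/E range of 61.3 to 73.9 CPM. The mean log2 CPM of Itga2b differed by -0.86, with an unadjusted p of 0.0857 in the exact permutation test. Itga2b missed the threshold without Kat6b E/E replicate 1 (FDR 0.0691 from limma) or replicate 2 (0.0593), and with 0 surrogate variables (0.604). Without WT replicate 4, Treml1 passed as well, with 4.38% of all genes, and without double mutant replicate 1 Itga2b, Gp1bb and Tmem40 did, with 22.1% of all genes.

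Whether the 2 mutations acted additively was tested as an interaction, the double mutant change minus the sum of both single changes. None of 13071 genes passed (0%), 652 had an unadjusted p under 0.05 (4.99%), none of the 10 genes among them, and edgeR and DESeq2 called none of the 10. Itga2b had an interaction of -0.43 (SE 0.246) and F2r of 0.13 (SE 0.182) on the log2 scale. Without double mutant replicate 1, 1 of the 10 genes (Gp1bb) and 10.9% of all genes passed.

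Across the 16 LSK libraries most of the genes varied together, with Selp and Tmem40 apart, Tmem40 mainly when genotypes were pooled. The 28 pairs among the other 8 genes had correlations of log2 CPM from 0.20 to 0.87, with a median of 0.67, and 0.69 within genotypes. The 17 pairs with Selp or Tmem40 ran from -0.47 to 0.57, with a median of -0.03, and 0.06 within genotypes. These 2 genes were singled out after their values were seen. Within genotypes Tmem40 correlated with Treml1 (r = 0.81), Itga2b (0.71), F2r (0.67), Gp1ba (0.61), Vwf (0.58) and Pf4 (0.58). Its values with Gp1bb (0.06), Gp9 (-0.04) and Selp (-0.30) were lower. Itga2b followed the mean of the other 9 genes most closely (r = 0.86). Over all genes tested, the patterns most like the mean of the 10 were those of Snx9 (r = 0.90), Tcaf1, Irf3, Cntn3 and Gp5 (each r = 0.88). Gp5 encodes the remaining subunit of the von Willebrand factor receptor, and over the 12 libraries with more detected genes its r was 0.90, the highest of these 5. The libraries share depth, litter and composition, and the values are descriptions.

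Transcription factors of the lineage were tested next. Of all genes tested, 0.627% were called lower in Kat6a E/E against WT and 0.941% in Kat6a E/E against Kat6b E/E. In the double mutant against Kat6b E/E the share was 0.926%. Of 15, 1 passed in Kat6a E/E against WT: Gata2, a stem cell and early megakaryocyte factor, fell by 0.57 (SE 0.0758, FDR = 0.00353) on the log2 scale, and the list median was -0.10. Against Kat6b E/E, 5 of 15 were lower in Kat6a E/E. They were Gfi1b at -0.91 (FDR = 0.0154), Gata2 at -0.47, Tal1 at -0.55, Zfpm1, the partner protein of GATA1, at -0.70, and Gata1. Gata1 is also in the list of erythroid markers below, so its call counts in both lists. In the double mutant against Kat6b E/E, Gfi1b (-0.80, FDR = 0.0438) and Tal1 (-0.49, FDR = 0.0476) were lower. The list medians in the last 2 comparisons were 0.00 and -0.08.

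Other platelet genes moved in both directions. The shares of all genes that passed were 1.36% in Kat6a E/E against WT and 2.07% in Kat6a E/E against Kat6b E/E. In the double mutant against Kat6b E/E the share was 1.48%. Of 23 further receptors, Cd84, an adhesion receptor of the SLAM family, rose in Kat6a E/E against WT (0.46, FDR = 0.0299), in Kat6a E/E against Kat6b E/E (0.70, FDR = 0.0152) and in the double mutant against Kat6b E/E (0.76, FDR = 0.0206). The ADP receptor P2ry12 rose in the last of these (1.17, FDR = 0.0413). Gp5 was lower in Kat6a E/E than in Kat6b E/E (-1.28, FDR = 0.0314), and so was the inhibitory receptor Mpig6b (FDR = 0.0469), which had 0 read pairs in all 4 Kat6a E/E libraries and at most 2.00 CPM in Kat6b E/E. Of 20 other granule contents, Pros1, encoding the anticoagulant protein S, fell in Kat6a E/E against WT (-0.72, FDR = 0.0215). Of 25 signalling and secretion genes, none passed in Kat6a E/E against WT, while Rab27b, a granule secretion GTPase, was lower and Ptgs1, encoding cyclooxygenase 1, higher in Kat6a E/E and in the double mutant against Kat6b E/E (-1.03 and 0.32, then -1.29 and 0.40). Of 15 cytoskeleton genes, Myl9 alone passed, lower in Kat6a E/E than in Kat6b E/E (-3.19, SE 0.770, FDR = 0.0468) at 0 to 0.441 CPM against 1.14 to 4.26 CPM. No gene of these lists passed in Kat6b E/E or the double mutant against WT.

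Markers of other blood cells differed between the same groups. All 18 tested erythroid markers had estimates below 0 in Kat6a E/E against WT (median -0.52) and none passed. In Kat6a E/E against Kat6b E/E all 18 were again below 0 (median -0.997), and Gata1 passed (-1.11, FDR = 0.0423). In the double mutant against Kat6b E/E, all 18 were below 0 (median -0.81) and Car1 passed (-1.63, FDR = 0.0453), and against WT all 18 were below 0 (median -0.43) and none passed. The measured sums did not follow these estimates. The summed erythroid level had a median of 2400 CPM in Kat6a E/E (1153 to 8248 CPM) and 2148 CPM in WT (1874 to 5950 CPM), and a median of 10449 CPM in the double mutant (2150 to 15846 CPM) and 6512 CPM in Kat6b E/E (3472 to 7666 CPM). The antibodies the study names for excluding lineage-positive cells include Ter-119, a marker of maturing erythroid cells. The part of erythroid RNA in the Itga2b and F2r values was not tested. Of 14 myeloid markers, Lyz2 (0.54, FDR = 0.00548) and Csf1r (0.41, FDR = 0.0174) rose in Kat6a E/E against WT. Of 11 lymphoid markers tested, Rag1 (-1.46, FDR = 0.0216), Il7r (-0.87, FDR = 0.0299) and Rag2 (-0.57, FDR = 0.0295) fell in the same comparison. Of 10 mast cell and basophil markers tested, Cpa3 fell (-1.04, FDR = 0.000582) and Csf2rb rose (0.45, FDR = 0.00400) there too. Of all genes tested, 1.36% passed in that comparison. In Kat6a E/E against Kat6b E/E, Lyz2, Csf1r, Itgam and Csf2rb were higher and Cpa3 lower, where 2.07% of all genes passed. Lyz2, Itgam and Csf2rb were higher and Cpa3 lower in the double mutant against Kat6b E/E, where 1.48% passed.

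Stem cell, endothelial, macrophage and hepatocyte markers gave 0 calls by limma in every LSK comparison. At an unadjusted p under 0.05 the highest counts in a comparison were 4 of 13, 1 of 15, 4 of 12 and 2 of 12 genes, in that order. Summed endothelial markers, which bear on Vwf and Selp because endothelial cells express both, were 342 to 605 CPM in WT and 396 to 565 CPM in Kat6a E/E. Their defining gene Cdh5 was at 11.2 to 17.99 CPM in WT and 5.15 to 13.5 CPM in Kat6a E/E. Summed hepatocyte markers were 104 to 251 CPM in WT and 106 to 285 CPM in Kat6a E/E. The part of these cells in the levels of the 10 genes was not tested.

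In whole E9.5 embryos 9 of the 10 genes passed the filter on low counts, and Selp did not. None of the 9 passed in any of the 5 mutants by limma, edgeR or DESeq2. The percentages of all 14183 genes that passed by limma were 2.64% in Kat6a-/-, 0.508% in Kat6b-/-, 0.275% in Kat6a E/E, 0% in Kat6b E/E and 2.91% in the double mutant. At an unadjusted p under 0.05 there were 2 of the 9 genes in Kat6a-/-, against 16.9% of all genes, and 0 in each other mutant. The 2 genes in Kat6a-/- were Vwf (-0.56, SE 0.202, FDR = 0.162), at 7.50 to 18.8 CPM against 18.6 to 23.4 CPM in WT, and F2r (-0.09, SE 0.0416, FDR = 0.286), at 160 to 176 CPM against 170 to 182 CPM in WT. Without the 3 libraries with Xist, 0 of the 9 genes passed in any mutant and 0 had an unadjusted p under 0.05, Vwf being at -0.18 (SE 0.225) and F2r at -0.06 (SE 0.0486) in Kat6a-/-. For Itga2b the Kat6a E/E difference at E9.5 was -0.02 (SE 0.355) and for F2r 0.03 (SE 0.0401), beside -0.78 and -0.57 in LSK cells. A difference between the stages was not tested, since they were fitted separately and come from different tissues.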

How the data were processed

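RNA-seq was analysed from 40 mouse libraries, 16 of E14.5 LSK cells and 24 of whole E9.5 embryos, each a separate fetus or embryo per the labels. Per the labels, unstranded TruSeq libraries were sequenced as paired ends, and the authors counted read pairs per RefSeq gene with featureCounts on mm39 after alignment with Rsubread. The deposited values are raw counts. Their strand is not marked, so a gene and an antisense partner cannot be told apart: 845 of the 8187 exonic bases of Itga2b and up to 919 of the 4413 of Selp overlap antisense RNAs.

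The main fit followed the study's design, per stage: genes annotated as protein-coding and not on chromosome Y were filtered with filterByExpr and scaled by TMM, followed by 4 surrogate variables (wsva, genotype kept in the design), voomLmFit with litter as a random block (estimated correlation 0.331 in LSK cells) and robust empirical Bayes moderation (edgeR 4.0.16, limma 3.58.1, R 4.3.3). FDR values are Benjamini-Hochberg adjusted over all genes tested, 13071 in LSK cells and 14183 in embryos, with calls under 0.05. CPM were scaled by the TMM factors, and RPKM also by the gene length given in each count file. Of 26411 genes, 26359 matched the RefSeq gene table by identifier (used for gene type only). Loci and promoters are from GRCm39 with GENCODE vM39. A count of 0 was given an upper limit of 3 counts, which covers counting error only.

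In counts simulated for the Kat6a E/E comparison with 12941 genes, the fit called 29 of 100 genes changed by 0.5 and 59 of 100 changed by 1 on the log2 scale, with 5 false calls. The simulated libraries varied independently, with no litter effect, no shared unwanted variation and no libraries with few detected genes. These rates therefore may not hold for the measured libraries. No pair of LSK libraries of the same genotype was a duplicate, and other pairs were not compared. Alternatives were other numbers of surrogate variables, no litter block, edgeR quasi-likelihood, DESeq2 1.42.0 and its size factors, no filter, all gene types, sample weights, Xist as a covariate (both sexes occur among the LSK libraries), the compared libraries alone, a replicate block, each library left out, and, chosen after seeing the data, the 4 LSK libraries under 14000 genes or the 3 E9.5 libraries over 100 CPM of Xist left out. The genes, lists and tests were chosen with earlier results of these data known. The named genes are the 10 genes, Kat6a and Kat6b, in each list up to 4 called genes per comparison by smallest p, and the 5 genes with the most similar pattern. One list of signalling genes is not reported here.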

Additional observations from a re-analysis of the deposited data

Results flagged for a closer look

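Each of the 10 genes was checked for a library far from the rest of its group of 4, in 100 groups with any spread. The gap to the nearest library exceeded the 95% limit of Dixon's ratio in 8 groups, and chance alone marks about 1 in 20 groups, or 5 here. In LSK cells the only such value was Pf4 in Kat6a E/E, at 12.8 CPM in replicate 2 against a group median of 2.23 CPM; this library is one of the 4 with few detected genes. In E9.5 embryos, replicate 1 of Kat6b E/E stood above its group for Pf4 (8.47 CPM, median 3.19 CPM) and for Itga2b (14.3 CPM, median 7.68 CPM). The others at E9.5 were F2r in Kat6a E/E (173 CPM in replicate 3, median 180 CPM), Gp1ba in WT (4.72 CPM in replicate 2, median 2.66 CPM), Gp9 in Kat6a-/- (0.398 CPM in replicate 2, one of the 3 libraries with Xist, median 0.871 CPM), Tmem40 in the double mutant (0.997 CPM in replicate 4, median 0.369 CPM) and Selp in Kat6b-/- (0.0624 CPM in replicate 4, median 0 CPM).

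For 2 genes every Kat6b E/E library lay above the WT mean CPM in LSK cells and below it in E9.5 embryos. The fitted log2 fold changes against WT were 0.43 and -0.19 for Gp1ba and 0.13 and -0.22 for Tmem40, in LSK cells and embryos respectively. Neither passed in either tissue by limma, and the difference between the tissues was not tested.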

How the results depend on the processing

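With 0 surrogate variables, by limma or by edgeR, 0 of the 10 genes passed in the comparisons that had calls. These were Kat6a E/E against WT, Kat6a E/E against Kat6b E/E and the double mutant against Kat6b E/E, with 3, 2 and 1 calls. The shares of all genes were then 0.023%, 0% and 0% by limma and 0%, 0.0306% and 0.0918% by edgeR. In the double mutant against WT, edgeR without surrogate variables called 1, against 0.298% of all genes. Using only the compared libraries, together with 0 surrogate variables, gave 0, 1 and 0, against 0.125%, 0.0397% and 0% of all genes. Sample weights gave 0 in Kat6a E/E against WT (0.0383% of all genes) and in the double mutant against Kat6b E/E (0%). No litter block gave 1, 5 and 2, against 0.252%, 5.63% and 4.58% of all genes. DESeq2 called 7 in Kat6a E/E against Kat6b E/E (13.3% of all genes) and 5 in the double mutant against Kat6b E/E (14.3%). In the double mutant against WT it called 1 (0.612%). In the first 2 of these, edgeR with 4 surrogate variables called 7 and 4 (9.28% and 10.2% of all genes). There, 2 surrogate variables gave 4 and 2 (4.45% and 2.8%), and Xist as a covariate gave 5 and 2 (3.96% and 2.26%). The 4 libraries under 14000 genes, chosen after seeing the data, were also left out. Kat6a E/E against Kat6b E/E then gave 2 with 0 surrogate variables (0.575% of all genes) and 4 with 2 surrogate variables (3.8%). The double mutant then had 1 library, assumed to vary like the other groups, so counts for its comparisons are not given. The cause of these changes was not tested.

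Leaving out single libraries gave 0 to 3 of the 10 genes in Kat6a E/E against WT (0.00756% to 2.75% of all genes). The range was 0 to 5 in Kat6a E/E against Kat6b E/E (0.0227% to 9.63%). In the double mutant it was 0 to 3 against Kat6b E/E (0% to 22.1%) and 0 to 4 against WT (0% to 16.4%). Against Kat6a E/E it was 0 to 2 (0% to 15.1%). The interaction gave 0 to 1 (0% to 10.9%), and Kat6b E/E against WT gave 0 (0% to 0.727%). At E9.5 the count was 0, and leaving out the 3 libraries with Xist, also chosen after seeing the data, gave 0 as well. Tmem40 in the double mutant against Kat6a E/E changed sign, from a log2 fold change of -0.07 to 0.43 (limma FDR = 0.0198), without double mutant replicate 1, and ran from -0.085 to 0.43 over the libraries left out. Over all the alternatives together (other tools and numbers of surrogate variables included), the counts over all genes moved more: 178 in Kat6a E/E against WT became 0 to 395, 270 in Kat6a E/E against Kat6b E/E 0 to 1735, and 193 in the double mutant against Kat6b E/E 0 to 2929, while counts of 0 rose to at most 2170 (double mutant against WT), 1998 (against Kat6a E/E), 1436 (interaction) and 96 (Kat6b E/E against WT).

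The replicate numbers do not mark pairs: 8 of 24 same-numbered pairs correlated above 0.1, from -0.43 to 0.35, and 3 of 16 libraries correlated best with their own number. With a replicate block 0 of the 10 genes passed in each of the 3 comparisons that had calls. Over all genes, 28 (0.214%) passed in Kat6a E/E against WT and 2 (0.0153%) in Kat6a E/E against Kat6b E/E. In the double mutant against Kat6b E/E, 8 of all genes (0.0612%) passed. The counts in the other LSK comparisons stayed at 0.

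The double mutant is limited by 3 libraries of 1 litter with few detected genes, so genotype, litter and library quality cannot be told apart there. Gp1bb, with at most 28 read pairs in a Kat6a E/E library, is limited by low counts and by exonic bases shared with Septin5.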
